A study of Mus musculus with 3 samples.

Results

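Interferon-stimulated genes are the genes a cell switches on when an interferon binds its surface receptor. A list of 34 such genes was followed through single cells of the mouse fracture callus, and 33 of them were found among the 32285 genes of the deposited data. *Mx1* was not analysed here. The genes were listed because they lead a small stromal cluster in earlier clustering of these same cells, so their high levels in such cells are given as a description and support nothing. Measures that did not enter that choice are their levels by cell class and by day, the other interferon genes, and the interferon ligands and receptors.

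The study captured callus cells of C57BL/6 mice in droplets after a femoral fracture, with no treatment in any group. There was 1 library each for day 7, day 10, and day 14, so differences between days cannot be told apart from differences between animals or libraries, and the number of mice behind each library was not given in the sources used here. The callus was cleaned of marrow and digested with collagenase, and live cells without CD45, CD31, and TER119 were sorted. Captured transcripts were counted by their unique molecular identifiers (UMIs), and levels are given as CPM, the UMIs of a gene per 1000000 UMIs summed over the cells of 1 class in 1 library.

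Cells with 500 to 5000 genes, at most 10% of UMIs from mitochondria, and at most 5% from hemoglobin were kept, which left 7017 cells of day 7, 6593 of day 10, and 9853 of day 14, with 55187609, 113618580, and 154573230 UMIs. Median depth was 5056 UMIs per cell at day 7, 17370 at day 10, and 15802 at day 14. The day 7 library went against its sort. *Ptprc*, which encodes CD45, had at least 1 UMI in 6570 of its 7017 cells, against 6 cells at day 10 and 173 at day 14. *S100a8*, a neutrophil gene, reached 109259 CPM in these *Ptprc*+ cells. The kept cells of different libraries shared 13 to 26 barcodes per pair. All intervals are exact 95% intervals that cover counting error only, and with 1 library per day no p-value was computed.

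Cells with 0 UMIs of *Ptprc* (*Ptprc*- cells) were read in 6 classes by marker gene. A cell was high for a marker when it had at least 3 UMIs of it and a CPM at or above the 95th percentile over all *Ptprc*- cells. For *Cyp1b1* and *Rgs5* that percentile was 0, so the 3 UMIs decided. *Aspn* encodes the matrix protein asporin, *Cnmd* encodes chondromodulin of cartilage, and *Col10a1* encodes the collagen of hypertrophic cartilage. *Ifitm5* is an osteoblast gene, *Rgs5* a pericyte gene, and *Cyp1b1* encodes a cytochrome P450 enzyme. Levels of some genes not used for the classes describe them, and their levels in the other classes are not given here. *Postn* stood at 5336 CPM in *Aspn*-high cells of day 10, *Ucma* at 2299 CPM in *Cnmd*-high cells, *Ihh* at 1068 CPM in *Col10a1*-high cells, *Bglap* at 5692 CPM in *Ifitm5*-high cells, *Mcam* at 348 CPM in *Rgs5*-high cells, and *Sfrp4* at 70.6 CPM in *Cyp1b1*-high cells. The classes held 1415 cells at day 10 and 2192 at day 14, but 33 at day 7, of which 0 were *Rgs5*-high.

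Type I interferons signal through a receptor of *Ifnar1* and *Ifnar2*, and interferon gamma through one of *Ifngr1* and *Ifngr2*. Janus kinases at the receptors pass the signal on to transcription factors. STAT2 and IRF9 act at an element in promoters known as the interferon-stimulated response element, and interferon gamma acts largely through another, the gamma-activated site. The genes downstream block viral RNA and protein, sense foreign RNA, attack the membranes around intracellular microbes, and load peptides for display to T cells.

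Many promoters of the listed genes carry the cores of these elements, and a few are shown because they share these letters. RefSeq promoter windows (GRCm38.p6, 250 bases before to 50 after the start of the gene) were matched by symbol for 28 of the 33 genes, and both strands were searched for the core of each element. The core of the response element was taken as GAAA, any 2 bases, and GAAA, and that of the gamma-activated site as TTC, any 3 bases, and GAA. The first core stood in 16 of the 28 windows (57.1%), against 3.99% of 27025 genes with a window. The second stood in 9 (32.1%), against 9.55% of all genes, and 4 windows held both and 7 neither. A match is a description of the letters and not a measured binding site. In the stretches below, capitals mark the matches of the response element core on either strand, and each stretch is written along the strand of its gene.
Ifit1, chr19:34640765-34640833, plus strand: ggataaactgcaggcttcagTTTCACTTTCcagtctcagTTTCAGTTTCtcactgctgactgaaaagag
Ifit3, chr19:34583353-34583436, plus strand: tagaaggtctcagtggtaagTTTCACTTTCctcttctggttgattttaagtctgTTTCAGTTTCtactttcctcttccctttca
Ifit3b, chr19:34607749-34607832, plus strand: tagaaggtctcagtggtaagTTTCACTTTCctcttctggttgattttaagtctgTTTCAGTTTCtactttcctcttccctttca
Isg15, chr4:156200855-156200916, minus strand: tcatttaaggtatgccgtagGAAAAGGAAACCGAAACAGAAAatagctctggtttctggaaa
Bst2, chr8:71537567-71537622, minus strand: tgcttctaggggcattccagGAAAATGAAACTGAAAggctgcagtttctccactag
Rsad2, chr12:26456543-26456592, minus strand: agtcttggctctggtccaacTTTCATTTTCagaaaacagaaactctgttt
Igtp, chr11:58199502-58199551, plus strand: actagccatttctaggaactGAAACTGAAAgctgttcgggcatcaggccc
Irgm2, chr11:58214893-58214942, plus strand: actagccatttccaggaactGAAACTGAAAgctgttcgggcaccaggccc
Gbp2, chr3:142620584-142620633, plus strand: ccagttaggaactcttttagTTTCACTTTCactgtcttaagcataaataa
B2m, chr2:122147528-122147577, plus strand: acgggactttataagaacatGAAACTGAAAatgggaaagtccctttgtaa

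The *Ifit3* and *Ifit3b* stretches, 84 bases long, were the same letter for letter, and their matches lay 156 and 122 bases before the start of *Ifit3*. In *Isg15* there were 3 overlapping matches between 78 and 66 bases before the start. In *Ifit1* the matches lay 104 and 85 bases before it. *Irf1* and *Isg20* had no match of the first core and 1 match of the gamma-activated site core, and so did *Ifi35*, *Psmb8*, and *Ifit2*. This was thus not particular to *Isg20*, which behaved unlike most of the list. Capitals mark the match in *Irf1* and *Isg20* here.
Irf1, chr11:53769904-53769952, plus strand: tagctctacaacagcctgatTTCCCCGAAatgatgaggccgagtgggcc
Isg20, chr7:78913331-78913379, plus strand: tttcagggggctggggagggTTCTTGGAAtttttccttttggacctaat

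The first question was how many cells of each class carried several of these transcripts at once. Among marker-high *Ptprc*- cells, those with UMIs of 6 or more listed genes made up 27.3% at day 7 (9 of 33 cells; 95% CI, 13.3% to 45.5%), 33.6% at day 10 (95% CI, 31.2% to 36.2%), and 15.6% at day 14 (95% CI, 14.1% to 17.1%). Among the *Ptprc*+ cells of day 7 the share was 70.6% (95% CI, 69.5% to 71.7%), although their median depth of 5045 UMIs was the lower. Deeper cells pass a count of genes more readily. With each cell thinned to 5000 UMIs and shallower cells left out, the shares were 15.2% at day 7, 9.62% at day 10, 3.49% at day 14, and 53.3% in the *Ptprc*+ cells of day 7, so day 7 and day 10 changed places, with a wide interval at day 7.

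**Figure D1:**
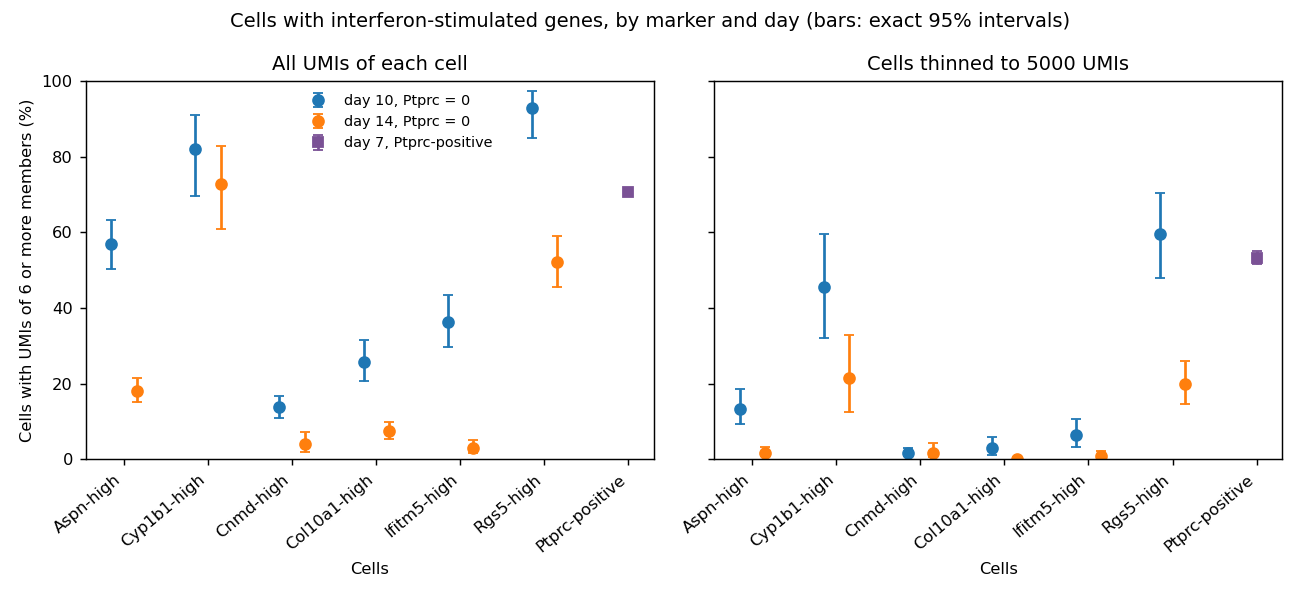
Share of cells with UMIs of 6 or more of the 33 genes (vertical axis, percent) by class and day, with all UMIs and with each cell thinned to 5000 UMIs. Bars are exact 95% intervals for counting error. *Rgs5*-high and *Cyp1b1*-high cells stand above the other marker-high classes on day 10 and day 14, and with all UMIs each class has a lower share at day 14 than at day 10.

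By class, the share was highest in *Rgs5*-high cells of day 10, at 92.8% of 83 cells (95% CI, 84.9% to 97.3%). At day 14 it was 52.3% of 222 cells (95% CI, 45.5% to 59.0%). *Cyp1b1*-high cells had 82.1% of 56 cells at day 10 and 72.9% of 70 cells at day 14, and the intervals of these shares overlapped. *Rgs5*-high cells were the shallower of the classes, with medians of 12708 and 9262.5 UMIs, so their high share did not go with high depth.

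*Aspn*-high cells went from 56.8% of 234 cells (95% CI, 50.2% to 63.3%) to 18% of 594 cells (95% CI, 15.0% to 21.3%). *Ifitm5*-high cells went from 36.4% of 198 to 3.04% of 493, and *Col10a1*-high cells from 25.7% of 268 to 7.43% of 565. In these classes the day 10 and day 14 intervals were well apart. *Cnmd*-high cells, at 13.7% of 576 and 4.03% of 248, had the lowest share at day 10 and serve as the low type beside the others, at a median depth of 16672.5 and 18316.5 UMIs. After thinning, the shares at day 10 and day 14 were 59.5% and 19.8% in *Rgs5*-high cells, 45.5% and 21.4% in *Cyp1b1*-high cells, and 13.3% and 1.74% in *Aspn*-high cells. They were 6.28% and 0.887% in *Ifitm5*-high cells, 2.87% and 0% in *Col10a1*-high cells, and 1.61% and 1.65% in *Cnmd*-high cells. At day 7 the classes were too small to compare, with 6 of 8 *Cyp1b1*-high, 3 of 15 *Ifitm5*-high, and 0 of 7 *Cnmd*-high cells.

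The limit of 6 genes fell where cells were common. Of all *Ptprc*- cells, 8.24% of day 10 and 4.92% of day 14 had exactly 6 of the genes, and 11.5% and 8.57% had exactly 5.

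The members were then described by role. The largest group was the antiviral effectors. These include *Bst2* (tetherin, which holds budding virions at the cell surface), *Isg15* (a ubiquitin-like protein attached to other proteins), *Usp18* (the protease that removes it), the *Ifit* genes (whose proteins bind foreign RNA), *Rsad2* (viperin), and *Oasl2* (a member of the oligoadenylate synthetase family). In *Aspn*-high cells the level of *Bst2* was 434 CPM on day 10 and 143 CPM on day 14, that of *Rtp4* 39.6 and 7.74 CPM, and *Xaf1*, a gene linked to apoptosis, 55.0 and 13.6 CPM. *Ifit1* stood at 21.7 and 4.50 CPM, *Oasl2* at 22.3 and 4.39 CPM, and *Isg15* at 18.2 and 4.97 CPM. In *Aspn*-high cells each of these 6 genes had a day 14 level below its day 10 level with an interval of the ratio below 1. For *Ifit1* the ratio of day 14 over day 10 was 0.208 (95% CI, 0.137 to 0.312).

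In *Ifitm5*-high cells the difference between the days was wider. *Bst2* had 296 CPM on day 10 and 34.9 CPM on day 14, *Isg15* had 18.8 and 2.24 CPM, and *Ifi44* had 13.2 and 1.12 CPM. *Oasl2* had 44 UMIs at day 10 and 2 UMIs at day 14, or 11.8 and 0.248 CPM. Many effector levels were high in *Rgs5*-high and *Cyp1b1*-high cells. In *Rgs5*-high cells *Bst2* had 600 and 212 CPM, *Isg15* 67.5 and 14.8 CPM, and *Ifi44* 36.4 and 6.98 CPM. In *Cyp1b1*-high cells *Ifit1* had 49.7 and 5.72 CPM, *Isg15* 72.9 and 17.1 CPM, and *Usp18* 28.9 and 3.81 CPM. At day 10, 1 of these cells held 21 UMIs of *Ifit1* and 12 of *Usp18*, a large part of those of the class. Other effectors were highest elsewhere, *Ifit2* at day 10 (9.90 CPM) and *Ifit3* at day 14 (23.8 CPM) in *Col10a1*-high cells and *Ifit3b* at day 14 (7.36 CPM) in *Cnmd*-high cells, with intervals that overlapped those of the next class. *Rsad2* was near absent from the marker-high classes, with at most 6.22 CPM, in *Rgs5*-high cells of day 10.

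*Isg20*, which encodes a nuclease that degrades RNA, had another pattern. It was highest in *Col10a1*-high cells, at 95.8 CPM on day 10 and 92.5 CPM on day 14, and the next class, *Cyp1b1*-high, had 23.1 and 42.9 CPM. The intervals of these levels did not overlap on either day. It was the 1 gene of the list with a higher level at day 14 in 5 of the 6 classes, with ratios of 1.97 (95% CI, 1.37 to 2.83) in *Cnmd*-high cells and 1.85 (95% CI, 1.16 to 3.06) in *Ifitm5*-high cells.

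The 8 GTPases of the list, some of which gather on the membranes around intracellular microbes, were uneven between classes. *Iigp1* stood at 65.9 CPM in *Cyp1b1*-high and 64.0 CPM in *Rgs5*-high cells of day 10, and at 2.83 CPM or less in the other 4 classes. At day 10, 1 *Cyp1b1*-high cell held 39 UMIs of *Iigp1*, most of those of its class. In *Col10a1*-high cells *Iigp1* had 0 UMIs on both days. At day 14 it stood at 31.2 CPM in *Rgs5*-high and 7.62 CPM in *Cyp1b1*-high cells. *Gbp2* and *Gbp3*, of the guanylate-binding family, had 25.8 and 36.4 CPM in *Rgs5*-high cells of day 10 and 13.1 and 11.1 CPM at day 14. *Igtp* and *Irgm2* overlap in the annotation of chromosome 11 on the same strand, and so their UMIs may be shared. *Irgm1*, which does not overlap them, had 23.2 CPM in *Aspn*-high cells of day 10 and 5.20 CPM at day 14.

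Of the RNA sensors, *Ifih1* had 25.8 CPM and *Ddx58* 40.9 CPM in *Rgs5*-high cells of day 10, and 14.0 and 18.9 CPM at day 14. Among the transcription factors, *Irf7*, which drives further interferon production, was highest in *Rgs5*-high cells, at 72.9 CPM on day 10 and 39.0 CPM on day 14. *Irf9* and *Stat2*, which act at the response element, stood at 37.4 and 20.4 CPM in *Aspn*-high cells of day 10 and at 14.7 and 10.2 CPM at day 14. The range of *Irf9* over the classes was narrow at day 10, from 14.8 to 41.6 CPM.

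The antigen presentation genes are 2 subunits of the immunoproteasome (*Psmb8* and *Psmb9*), the peptide transporter *Tap1*, and *B2m*, the light chain of class I molecules. *B2m* was high in every class, from 224 CPM in *Col10a1*-high to 1695 CPM in *Rgs5*-high cells of day 10, and from 249 to 1539 CPM at day 14. *Psmb8* stood at 152 and 105 CPM in *Rgs5*-high cells, 82.1 and 90.5 CPM in *Cyp1b1*-high cells, and 10.0 CPM or less in the other classes on both days. *Psmb9* in *Rgs5*-high cells had 38.2 and 39.8 CPM, with no lower level at day 14. *Psmb9* and *Tap1* overlap on opposite strands of chromosome 17, and whether the counting used strand was not given in the sources used here.

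**Figure D2:**
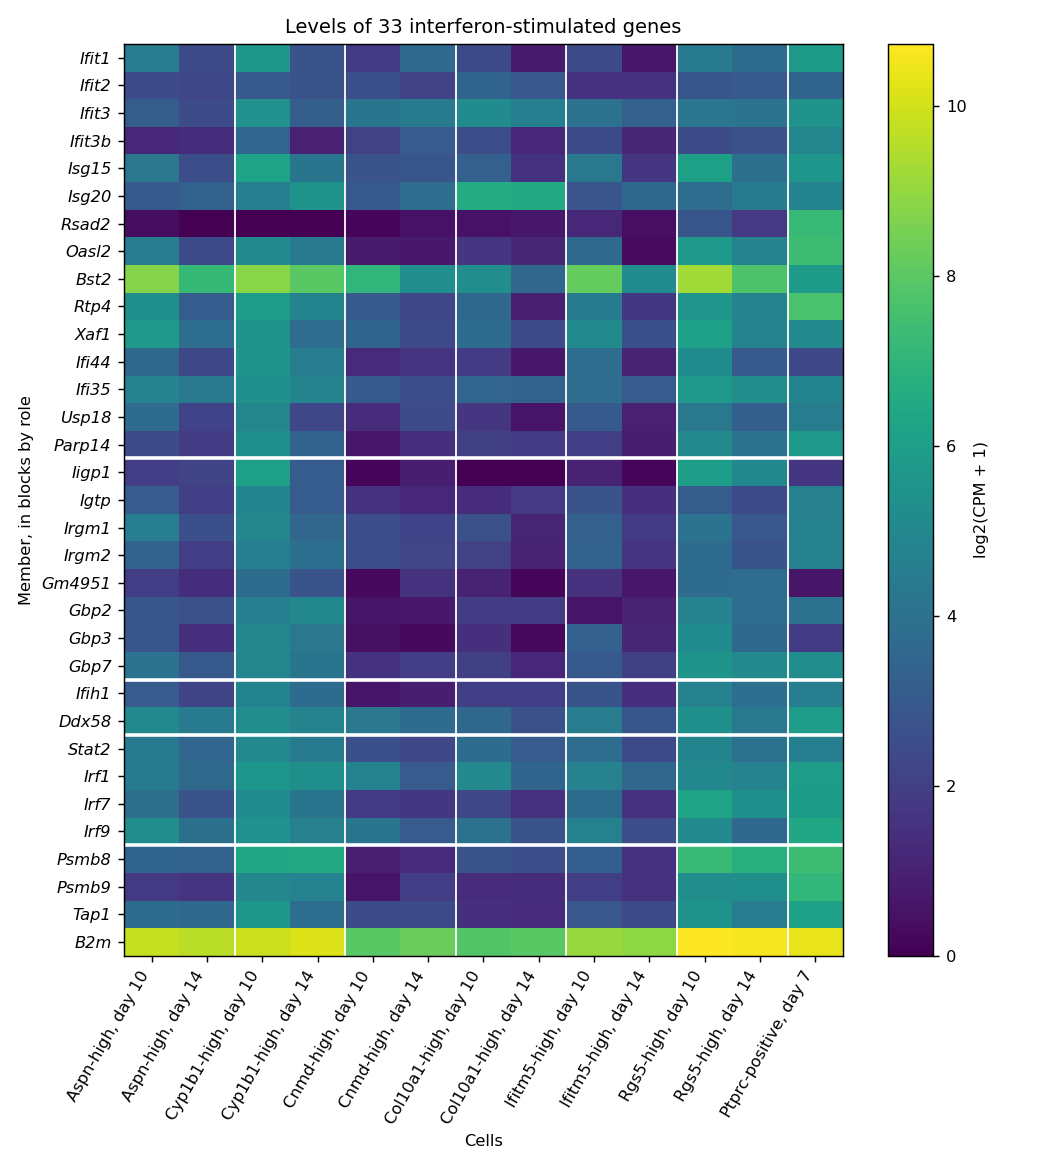
Levels of the 33 genes (rows, grouped by role) in the 6 marker-high classes at day 10 and day 14 and in the *Ptprc*+ cells of day 7 (columns), colored by log2 of CPM plus 1. The *Rgs5*-high and *Cyp1b1*-high columns are brighter than the other classes for most rows, *B2m* is bright throughout, and *Isg20* is brightest in the *Col10a1*-high columns.

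For each gene the classes were put in order of level. At day 10 *Cyp1b1*-high cells were the highest for 18 genes, *Rgs5*-high cells for 13, and *Col10a1*-high cells for 2. At day 14 *Rgs5*-high cells were the highest for 17, *Cyp1b1*-high cells for 13, *Col10a1*-high cells for 2, and *Cnmd*-high cells for 1. *Rgs5*-high and *Cyp1b1*-high cells were mostly not apart from each other. The interval of the highest class was apart from that of the next for 7 genes at day 10, which were *Ifit1*, *Igtp*, and *Isg20* beside *Irf7*, *Bst2*, *Psmb8*, and *B2m* of the *Rgs5*-high cells. At day 14 this held for 8 genes. The order at day 10 rests in part on 1 *Cyp1b1*-high cell with UMIs of 31 of the genes. It held 28 UMIs of *Ifit3*, 21 of *Ifit1*, 12 of *Usp18*, and 8 of *Ifit3b*, a large part of those of its class. It also held 8 UMIs of *Igtp*. The order without this cell was not computed.

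Against the other 5 classes together, *Rgs5*-high cells had at least 2-fold higher levels of 24 of the 33 genes at day 10, a fold that 16.4% of all genes reached, and of 27 of 33 at day 14, against 14.9% of all genes. The median ratio over the 33 genes was 4.07 and 3.62. At day 10 *Psmb8* was 19.7-fold higher (95% CI, 15.8 to 24.5), *Psmb9* 14.7-fold, *Irf7* 9.61-fold, and *B2m* 4.08-fold. *Ifit3*, at 17.8 against 20.1 CPM, did not differ beyond counting error, and *Isg20* had a ratio of 0.523 (95% CI, 0.291 to 0.870). *Cyp1b1*-high cells were at least 2-fold higher for 26 of 33 genes at day 10 (17% of all genes) and 25 of 33 at day 14 (13.1%). At day 10 *Iigp1* was 17.0-fold and *Parp14* 10.6-fold higher in them, while *Bst2* was 2.18-fold higher. Most *Iigp1* UMIs of the *Cyp1b1*-high cells of day 10 came from 1 cell, which held 39. The same cell held 11 UMIs of *Parp14*.

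The second question was the difference between day 10 and day 14 within a class, which did not enter the choice of genes. In *Aspn*-high cells 17 of the 32 genes with at least 10 UMIs were at least 2-fold lower at day 14, a fold that 5.23% of all genes reached, and 0 were 2-fold higher, which 4.51% of all genes were. The median ratio of the genes was 0.486, and that of all genes was 0.999. In *Ifitm5*-high cells 23 of 31 genes were at least 2-fold lower (3.29% of all genes), with a median ratio of 0.294.

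*Col10a1*-high cells had 16 of 30 genes at least 2-fold lower (3.58% of all genes), *Cyp1b1*-high cells 16 of 32 (8.08%), and *Rgs5*-high cells 14 of 33 (3.48%), with median ratios of 0.482, 0.524, and 0.514. *Cnmd*-high cells stood apart, with 4 of 28 at least 2-fold lower (4.82% of all genes), 6 of 28 at least 2-fold higher (3.28% of all genes), and a median of 0.948. A few cells bore on this. When 4 *Cnmd*-high cells of day 10 and 3 of day 14 with UMIs of many of the genes (the interferon-high cells described next) were left out, a step added once the data had been seen, 10 of 25 genes were lower (4.91% of all genes), 3 were higher (3.3%), and the median was 0.588. *Ifit1* in *Cnmd*-high cells then had a ratio of 0.70 in place of 4.52 (95% CI, 2.77 to 7.58). In *Cyp1b1*-high cells the same step left 9 of 29 lower (8.91% of all genes) and 2 higher (7.4%), with a median of 0.740.

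Of the 33 genes, 27 had enough UMIs to be compared in all 6 classes, and 13 of these were lower at day 14 in every class, as were 7.06% of the 9291 genes compared in all 6. For *Xaf1*, *Bst2*, and *Rtp4* the interval of the ratio lay below 1 in each of the 6. The ratios ran from 0.159 to 0.414 for *Xaf1*, from 0.118 to 0.555 for *Bst2*, and from 0.0852 to 0.565 for *Rtp4*. Without the interferon-high cells, *Rtp4* in *Cyp1b1*-high cells had a ratio of 0.666 (95% CI, 0.381 to 1.16). *B2m* had ratios near 1, from 0.877 in *Aspn*-high to 1.22 in *Cnmd*-high cells.

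**Figure D3:**
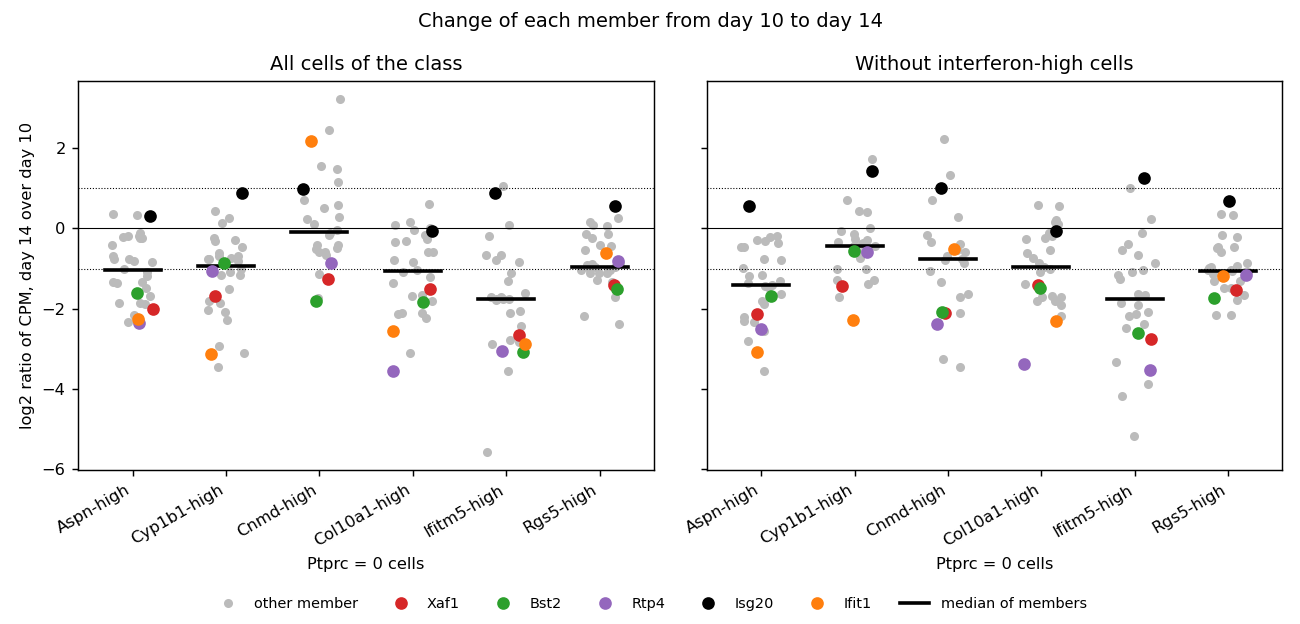
Each point is the log2 ratio of the CPM of 1 gene at day 14 over day 10 in the *Ptprc*- cells of 1 class, with all cells (left) and without interferon-high cells (right). Bars are medians and dotted lines mark a fold of 2. *Xaf1*, *Bst2*, and *Rtp4* lie below 0 in each class, *Isg20* lies above 0 in 5 of 6, and *Ifit1* in *Cnmd*-high cells lies above 0 in the left plot and below it in the right.

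The third question concerned the few cells in which the genes were on together. A cell was called interferon-high when it had UMIs of 6 or more of 11 selecting genes, which were *Ifit1*, *Ifit2*, *Ifit3*, *Ifit3b*, *Isg15*, *Rsad2*, *Usp18*, *Rtp4*, *Oasl2*, *Irf7*, and *Ifi44*. There were 117 such cells among the 6587 *Ptprc*- cells of day 10, or 17.8 per 1000 (95% CI, 14.7 to 21.2), and 76 among the 9680 of day 14, or 7.85 per 1000 (95% CI, 6.19 to 9.82). At day 7 there were 10 among 447. Within the marker-high classes there were 33 at day 10, or 23.3 per 1000 (95% CI, 16.1 to 32.6), and 13 at day 14, or 5.93 per 1000 (95% CI, 3.16 to 10.1).

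At day 10 the rate was 120 per 1000 in *Rgs5*-high cells (10 of 83) and 107 per 1000 in *Cyp1b1*-high cells (6 of 56), against 35.4 in *Ifitm5*-high, 17.1 in *Aspn*-high, 7.46 in *Col10a1*-high, and 6.94 in *Cnmd*-high cells. At day 14 it was 18 in *Rgs5*-high cells (4 of 222), and *Col10a1*-high cells had 0 of 565, which allows up to 6.51 per 1000. Most interferon-high cells, 71.8% at day 10 and 82.9% at day 14, were high for no marker, as were 78.5% and 77.4% of all *Ptprc*- cells. The order of the days was not stable. In marker-high cells thinned to 5000 UMIs the rate was 1.48 per 1000 at day 10 (2 of 1352 cells; 95% CI, 0.179 to 5.33) and 3.88 per 1000 at day 14 (8 of 2062 cells; 95% CI, 1.68 to 7.63), and these intervals overlap. With 8 selecting genes in place of 6 and all UMIs, it was 5.65 and 4.11 per 1000 in marker-high cells.

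The selecting genes chose these cells, so their levels only describe them. *Ifit1* stood at 158 CPM in interferon-high and 5.49 CPM in the other *Ptprc*- cells of day 10, and at 343 and 1.39 CPM at day 14. *Isg15* had 206 against 11.6 CPM at day 10 and 316 against 2.86 CPM at day 14. *Ifit3* had 187 against 14.9 CPM and 709 against 10.5 CPM. These few cells held much of the RNA. At day 14 they had 0.868% of all UMIs of *Ptprc*- cells but 68.4% of those of *Ifit1*, 61.2% of *Ifit3b*, and 73.6% of *Rsad2*. At day 10 they had 1.91% of all UMIs and a median of 25.7% over the selecting genes.

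The other 22 genes of the list did not enter the choice of cells, but the list itself was drawn from a cluster of this kind. At day 10, 20 of the 22 were at least 2-fold higher in interferon-high cells, a fold that 11.1% of all genes reached, and at day 14 it was 21 of 22, against 8.9%. Their median ratios were 5.47 and 13.7. *Iigp1* stood at 78.7 against 2.22 CPM at day 10 and at 129 against 1.44 CPM at day 14. *Bst2* had 934 against 202 CPM and 924 against 69.7 CPM, and *B2m* had 1128 against 418 CPM and 1071 against 506 CPM. *Irgm1* differed between the days, at 33.6 CPM on day 10 and 92.9 CPM on day 14 in the interferon-high cells.

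*Isg20* was the exception on both days, with ratios of 0.889 (95% CI, 0.654 to 1.18) at day 10 and 1.33 (95% CI, 0.998 to 1.75) at day 14. *Irf1* reached 1.69 at day 10 and 2.94 at day 14. Median depth was 18672 UMIs in interferon-high and 17342 in other cells at day 10, and 17460.5 and 15833.5 at day 14. The median number of the 33 genes with a UMI was 17 in interferon-high and 4 in other cells at day 10, and 21 and 3 at day 14. The cell with the most had all 33 at day 14, with 337 UMIs of them among 18006, 80 of them *Ifit3*, and it was high for no marker.

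**Figure D4:**
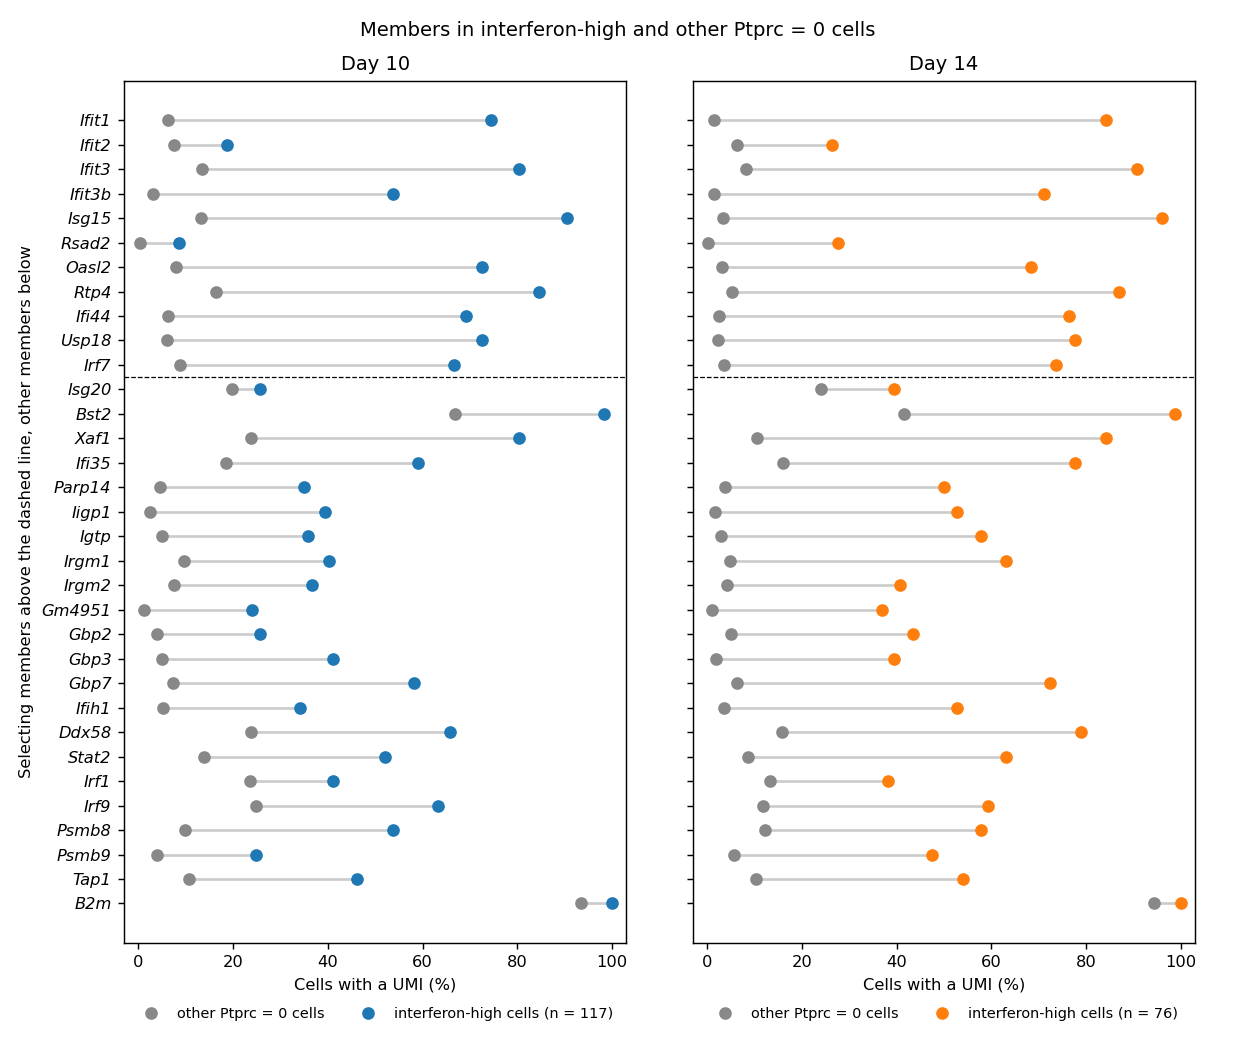
Share of cells with a UMI of each gene (horizontal axis, percent) in interferon-high cells (117 at day 10, 76 at day 14, colored) and in all other *Ptprc*- cells (gray). Genes above the dashed line chose the cells, and of those below it *Isg20* has the smallest gap beside *B2m*, which nearly every cell had.

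Other genes of the interferon pathway were read from a list of 57, and they are no members. Of those with at least 10 UMIs, 48 of 52 were at least 2-fold higher in interferon-high cells at day 10 and 49 of 53 at day 14, with *Ifi27*, *Ifi30*, *Ifitm2*, and *Socs1* below that fold on both days. Of all genes, 11.1% and 8.9% reached it. *Cxcl10*, a chemokine that draws T cells, had 49.7 against 5.50 CPM at day 10 and 251 against 2.22 CPM at day 14. Among genes outside the member list with at least 20 UMIs in the interferon-high cells of each day, the 10 that ranked highest by the smaller of their day 10 and day 14 ratios were *Gbp6* (25.2 and 78.6), *Cxcl9* (22.7 and 53.1), *F830016B08Rik* (21.4 and 41.0), *Ifi47*, *Trim30a*, *Sp110*, *Phf11d*, *Cxcl5*, *Sp100*, and *Ifi203* (11.8 and 23.8). Of these 10, 7 were on the list of 57 interferon genes.

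The GTPases gave a set of cells that overlapped the interferon-high cells in part. Those with UMIs of 4 or more of the 8 GTPases numbered 110 at day 10 and 77 at day 14. At day 10, 43 of them were interferon-high, which is 39.1% of the first set and 36.8% of the second. At day 14, 43 were, or 55.8% and 56.6%. Among all *Ptprc*- cells, 17.8 per 1000 of day 10 and 7.85 per 1000 of day 14 were interferon-high.

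Markers of other cell types were summed in the interferon-high cells. Pan-hematopoietic genes had 9.66 against 7.20 CPM in other *Ptprc*- cells at day 10 and 16.6 against 13.4 CPM at day 14. *Cd79a* and *Siglech* had 0 UMIs in the interferon-high cells on both days. The other *Ptprc*- cells had little of either, with *Cd79a* at 0.413 and 0.291 CPM and *Siglech* with 0 and 1 UMIs. The neutrophil list had 2.76 against 33.3 CPM and 28.7 against 382 CPM, so it was lower in the interferon-high cells. The osteoclast list was higher, at 361 against 41.6 CPM and 312 against 62.7 CPM, carried by *Mmp9* at 339 against 29.2 CPM and 295 against 48.1 CPM. At day 10, 1 cell held 621 of its UMIs, and without the 3 cells with the most UMIs of it *Mmp9* stood at 15.5 and 54.9 CPM in the interferon-high cells. The monocyte and macrophage list had 11 against 3.07 CPM at day 10 and 2.27 against 5.48 CPM at day 14, and the endothelial list 1.84 against 2.91 CPM and 6.05 against 3.53 CPM. The B lineage list had 191 against 99.2 CPM at day 10, nearly all of it *Ebf1*, which *Rgs5*-high cells held at 636 CPM. The skeletal and stromal list stood at 21148 against 24949 CPM at day 10 and at 15664 against 25051 CPM at day 14. The part of these other types in the result was not tested.

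Interferon transcripts themselves were hardly seen. *Ifnb1* and 8 of the 9 listed *Ifna* genes had 0 UMIs in every library, and *Ifna2* had 1, at day 10. *Ifng* had 9 UMIs in the *Ptprc*+ cells of day 7 and 2 at day 10 and at day 14. With no UMI in the 6587 *Ptprc*- cells of day 10, the *Ifnb1* level could be up to 0.0325 CPM. *Ifnz* had 7 UMIs at day 10 and 28 at day 14 in *Ptprc*- cells, with 0 in interferon-high cells.

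The receptors were present in the marker-high cells on both days. *Ifnar1* had 23.9 CPM on day 10 and 23.5 CPM on day 14, *Ifnar2* 60.4 and 70.5 CPM, *Ifngr1* 40.1 and 40.1 CPM, and *Jak1* 90.9 and 92.7 CPM. *Ifnlr1*, the receptor of lambda interferons, had 0.261 and 0.116 CPM. In *Rgs5*-high cells *Ifngr2* stood at 186 and 143 CPM, against 40.3 and 41.7 CPM over all marker-high cells. Of the sensing genes, *Tlr3* had 16.1 against 4.84 CPM in interferon-high and other cells at day 10 and 21.2 against 5.15 CPM at day 14. *Tlr7* and *Tlr9* had 0 UMIs in the interferon-high cells. Over all *Ptprc*- cells *Tlr7* had 0 UMIs at day 10 and 2 at day 14, and *Tlr9* had 1 on each day.

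The fourth comparison set the *Ptprc*+ cells of day 7 beside the marker-high *Ptprc*- cells of day 10. Of the 33 genes, 23 were at least 2-fold higher in the *Ptprc*+ cells, against 24% of all genes, and 5 were at least 2-fold lower, against 43.2% of all genes. *Rsad2* stood at 151 against 0.695 CPM (7583 and 16 UMIs), a ratio of 217 (95% CI, 133 to 379). *Psmb9* had 136 against 4.35 CPM, *Oasl2* 167 against 9.69 CPM, *Psmb8* 169 against 14.8 CPM, and *Rtp4* 198 against 18.3 CPM. *B2m* had 1330 against 478 CPM.

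The 5 genes that were lower in the *Ptprc*+ cells were *Bst2* (56.5 against 217 CPM), *Ifi44* (4.05 against 8.34), *Iigp1* (2.27 against 6.21), *Gbp3* (2.70 against 5.74), and *Gm4951* (0.556 against 2.09). Without interferon-high cells, or with the 90th percentile as the limit of the classes, 2 genes were lower in place of 5, and 25 were higher. Cell type and day differ together here, and cannot be told apart. Against *Rgs5*-high cells of day 10 alone, 11 genes were at least 2-fold higher in the *Ptprc*+ cells and 6 at least 2-fold lower, with a median ratio of 1.40. Of all genes, 28.8% were higher and 38.5% lower, so the 11 were near the share of all genes. *Rsad2* in the marker-high cells of day 7 had 1 UMI, or 1.00% of its *Ptprc*+ level. *S100a8* had 464 UMIs there, or 0.642% of its *Ptprc*+ level. With 1 UMI, *Rsad2* is not read as expression in these cells.

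Within the *Ptprc*+ cells the share differed between cell types. The cells were split by leading gene, with limits set after the data were seen. The share with 6 or more of the genes was 92.4% in *Csf1r*-high cells (119 cells), 90.9% in *Siglech*-high cells (22), 88.6% in *Cd3e*-high cells (35), and 66.7% in *Cd79a*-high cells (180). Thinned to 5000 UMIs it was 86.0%, 95.2%, 62.1%, and 52.4%, respectively. *Csf1r* marks monocytes and macrophages, *Siglech* plasmacytoid dendritic cells, *Cd3e* T cells, and *Cd79a* B cells. *Mmp8*, a gene of the neutrophil list, had a UMI in 73.1% of the *Csf1r*-high cells. It had one in 9.09% of *Siglech*-high, 22.9% of *Cd3e*-high, and 11.1% of *Cd79a*-high cells. The part of neutrophils in the *Csf1r*-high share was not tested. Granulocyte genes were *Mpo* of precursors (81.2% of 112 cells), *Camp* of secondary granules (76.6% of 2106), and *Retnlg* of mature neutrophils (67.5% of 3084), with median depths of 17519, 9668.5, and 4028.5 UMIs. After thinning to 5000 UMIs the shares were 37.3%, 41.2%, and 74.7%, with 909 of the *Retnlg*-high cells deep enough. At 2000 UMIs they were 15.1%, 9.09%, and 34.9%, so *Retnlg*-high cells had the highest of these shares at both depths, and the order of the other 2 was not stable.

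Levels within the granulocyte line differed by gene. *Rsad2* stood at 27.4 CPM in *Mpo*-high, 76.0 CPM in *Camp*-high, and 319 CPM in *Retnlg*-high cells, and *Oasl2* at 43.7, 70.2, and 364 CPM. *Ifit3* had 5.24, 7.75, and 88.3 CPM, and *Isg15* 17.5, 23.9, and 81.5 CPM. Other genes went the other way. *Bst2* stood at 123, 16.6, and 14.6 CPM, *Ifi35* at 29.7, 25.3, and 19.8 CPM, and *Ifit2* at 11.1, 8.26, and 6.76 CPM. The antigen presentation genes summed to 1948, 1398, and 1680 CPM, in neither order. In the 22 *Siglech*-high cells *Bst2* reached 4028 CPM, *Irf7* 231 CPM, and *Psmb8* 631 CPM, while *Ifit1*, *Ifit2*, *Ifit3*, *Ifit3b*, and *Rsad2* had 0 UMIs.

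**Figure D5:**
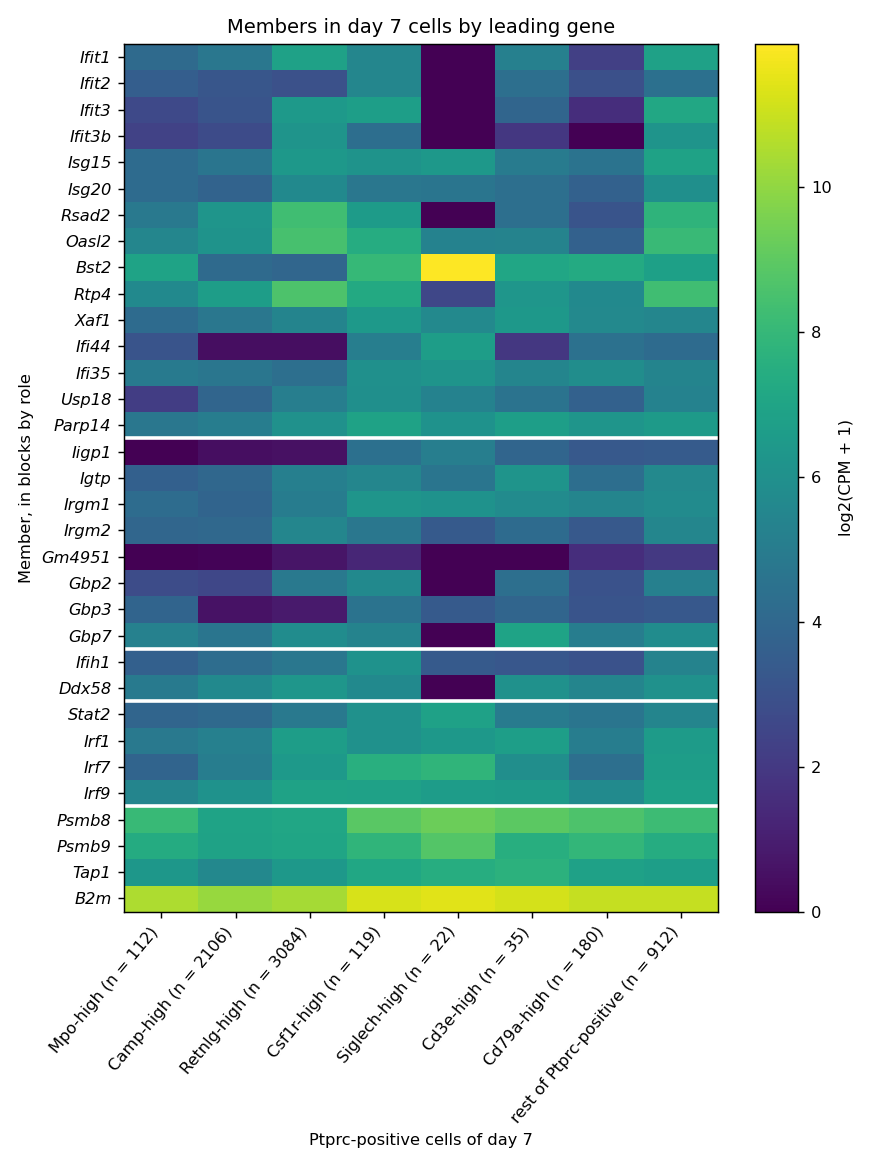
Levels of the 33 genes (rows, grouped by role) in the *Ptprc*+ cells of day 7 split by leading gene (columns), colored by log2 of CPM plus 1. *Rsad2*, *Oasl2*, and *Ifit3* are higher in *Retnlg*-high than in *Mpo*-high and *Camp*-high cells, and *Bst2* is highest in *Siglech*-high cells.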

How the data were processed

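The authors deposited raw UMI counts per gene and cell from 10x Genomics 3′ libraries of 3 callus samples, aligned to mm10. Cell Ranger 3.0 is named in the submitters' processing notes and 3.1.0 in the matrix header. No normalization had been applied to these deposited counts. The study's limits on cells were applied here, no doublet caller was run beyond the upper limit of 5000 genes, and UMIs were summed per class and library and scaled to CPM. Cells were thinned to 5000 UMIs (2000 as an alternative). A cell high for several markers went to the one with the largest CPM over its limit. *Cyp1b1* and *Rgs5*, with a limit of 0 CPM, always came before the other markers, and between them the larger CPM decided. The limits were 7573 CPM for *Aspn*, 4664 for *Cnmd*, 25781 for *Col10a1*, and 148 for *Ifitm5*.

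Levels have exact Poisson intervals, ratios exact binomial intervals, and shares Clopper-Pearson intervals. Genes with at least 10 UMIs over both sides entered a comparison. Of the transcripts of the members, 6.57% of the 90-base words in the last 500 bases of *Ifit3* were shared with *Ifit3b*, so their counts are uncertain. The named genes were the members, the genes of the pathway and cell type lists, and the 10 other genes with the largest ratio in interferon-high cells. The members and lists were chosen with earlier results of these data known. Python 3.11.15, numpy 2.4.6, scipy 1.17.1, pandas 2.3.3, and matplotlib 3.10.9 were used, and the steps were tested on simulated data. The result for 1 gene of the pathway lists is not reported here.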

Additional observations from a re-analysis of the deposited data

Results flagged for a closer look

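For 4 genes the day 14 over day 10 ratio ran in opposite directions in different classes, with intervals on either side of 1, and the difference between the classes was not tested. *Ifit1* had a ratio of 4.52 in *Cnmd*-high and 0.115 in *Cyp1b1*-high cells, *Ifit3b* 2.22 and 0.0915, and *Usp18* 2.93 and 0.132. *B2m* had 1.22 in *Cnmd*-high and 0.877 in *Aspn*-high cells. Without interferon-high cells the *Cnmd*-high ratios were 0.70 for *Ifit1*, 0.588 for *Ifit3b*, 0.763 for *Usp18*, and 1.21 for *B2m*. The low *Cyp1b1*-high ratios also rest in part on 1 interferon-high cell of day 10. That cell held 21 UMIs of *Ifit1*, 8 of *Ifit3b*, and 12 of *Usp18*, a large part of those of its class.

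The cells with more than 5000 genes, which the comparisons leave out, held interferon-high cells too. Among those without *Ptprc* the rate was 43.2 per 1000 at day 10 (32 of 741 cells; 95% CI, 29.7 to 60.4) and 22.2 per 1000 at day 14 (21 of 945 cells; 95% CI, 13.8 to 33.8), against 17.8 and 7.85 per 1000 within the limit. Their median depth was 34771 and 35762 UMIs, and the part of depth and of droplets with more than 1 cell was not tested.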

How the results depend on the processing

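Of 54 alternative values, 31 stayed within the interval of the reported value, or within 1.5 times a reported count. With 4 or more genes in place of 6, the shares were 51.5% at day 7, 59.8% at day 10, 38.0% at day 14, and 89.6% in *Ptprc*+ cells of day 7. With 8 or more they were 19.1% at day 10, 6.02% at day 14, and 50.2% in *Ptprc*+ cells. Cells thinned to 5000 UMIs gave 9.62%, 3.49%, and 53.3%, and cells thinned to 2000 UMIs gave 9.09% at day 7, 2.14% at day 10, 0.829% at day 14, and 27.0% in *Ptprc*+ cells. Without the upper limit on genes the share was 18.1% at day 14 and 73.6% in *Ptprc*+ cells. Without *B2m* it was 25.2% at day 10, 9.81% at day 14, and 60.6% in *Ptprc*+ cells. Interferon-high cells per 1000 marker-high cells were 68.6 at day 10 and 13.7 at day 14 with 4 selecting genes, 5.65 at day 10 with 8, and 1.48 at day 10 against 3.88 at day 14 when thinned, which turned the order of the days, with overlapping intervals. The number of genes at least 2-fold apart ranged from 16 to 20 around 17 in *Aspn*-high cells. For *Ptprc*+ cells it ranged from 26 to the reported 28, and the lower ones went from 5 to 2. In the reported comparisons 9.74% and 67.2% of all genes were at least 2-fold apart. With a fold of 1.5 the counts were 22 and 31, against 21.3% and 79.5% of all genes. Leaving out interferon-high cells, and adding *Aspn*-high cells that were high for another marker, were chosen after seeing the data. No paired analysis was possible because each day has 1 library. At day 7 the 33 marker-high cells limit every value.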
